A study of Ovis aries with 7 samples.

Results

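Messenger RNA of the translation initiation factors was described in 8-cell embryos of the sheep, Ovis aries. Members were taken by name: every row of the deposited table whose symbol begins with EIF1 to EIF6, leaving out the eIF2 kinases (EIF2AK) and EIF1AD. The rule found 46 genes among 31304 rows, of which 16527 carry a gene symbol. EIF3C, a further subunit of eIF3, was not analysed here.

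PolyA RNA was reverse transcribed, amplified by PCR for 20 cycles and sequenced with Smart-seq2, a method for small amounts of input, as paired reads of 150 nucleotides. The labels name 4 SCNT samples (nuclear transfer from a somatic cell into an egg) and 3 IVF samples (in vitro fertilization), all of the 8-cell stage. In the table, 4 value columns bear a name that is used by no sample label, so the SCNT samples were not analysed here, no SCNT against IVF difference is given, and all values below are from the 3 IVF libraries. No label says how many embryos a library holds or which breed or donor cells were used, and none ties a library to a trial, so replicates may differ in part for technical reasons.

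Initiation factors bring the small ribosomal subunit, the initiator tRNA and the mRNA together at the start codon. In the scanning model, eIF1, eIF1A, eIF3, eIF5 and the eIF2 complex with its tRNA bind the small subunit, eIF4F recruits this complex to the capped mRNA, and eIF5B joins the large subunit. EIF1AX is used in several mammals as a marker of genome activation, the point at which the embryo starts to transcribe its own genes. Oocytes and early embryos store many mRNAs untranslated, and control at the cap is among the steps that decide which of them are read.

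Levels are TPM (transcript abundance scaled by gene length and library total) and are given in the order of replicates 1, 2 and 3 or as mean ± SD with n = 3. TPM keeps no sequencing depth, so depth is unknown and no counting interval is given. One group allows no test between groups, and 3 libraries allow no two-sided exact sign-flip p below 0.25, so differences are set against the spread between libraries. The libraries carried genes of the early embryo: ARGFX stood at 376, 1022 and 444 TPM, ZSCAN4 at 54.7, 216 and 69.3 TPM and KLF17 at 98.9, 117 and 105 TPM, whereas the fibroblast genes COL1A2 and VIM stood at 0.582, 2.78 and 1.57 TPM and at 6.48, 8.84 and 8.37 TPM. Replicate 2 stood apart in its mitochondrial share and in its median row. Its mitochondrially encoded rows, ribosomal and transfer RNA included, took 5.53% of TPM, against 2.55% and 1.94% in replicates 1 and 3. Its median row, over the 6978 rows that averaged 5 TPM or more, lay 0.19 above the mean of the other libraries in log2(TPM + 1). Differences of replicate 2 from the other libraries are therefore also given under a second scaling. Replicate 1 differed in many rows too. Of the 6978 rows, 5.65% were at least 2-fold higher in replicate 1 than in the mean of the others and 7.71% lower. The shares were 12.8% and 3.85% in replicate 2, and 0.817% and 2.62% in replicate 3. Replicates 1 and 3 are thus no uniform baseline. In whole embryos, fewer cells with an mRNA and less of it per cell cannot be told apart. Protein was not measured, so levels and ratios of members below are of mRNA only.

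Initiation factor mRNA was abundant as a class, and its summed share of TPM varied little between libraries, though many single members varied more. The 46 rows took 1.81, 1.63 and 1.78% of all TPM in replicates 1, 2 and 3, a mean of 1.74 ± 0.0971%, of which EIF1 alone gave 0.672 ± 0.107%. Their median was 92.4, 110.4 and 114 TPM, against 1.46, 1.74 and 1.32 TPM for all rows with a symbol. Of the 46 members, 44 stood at 1 TPM or more in all 3 libraries, 39 at 10 TPM or more and 22 at 100 TPM or more. Among all rows with a symbol those thresholds were passed by 49%, 21.7% and 4.73%. The members below 1 TPM in at least 1 library were EIF4E3 and EIF4EBP1. On average 3 members exceeded 1000 TPM: EIF1, EIF5A and EIF3I.

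**Figure D1:**
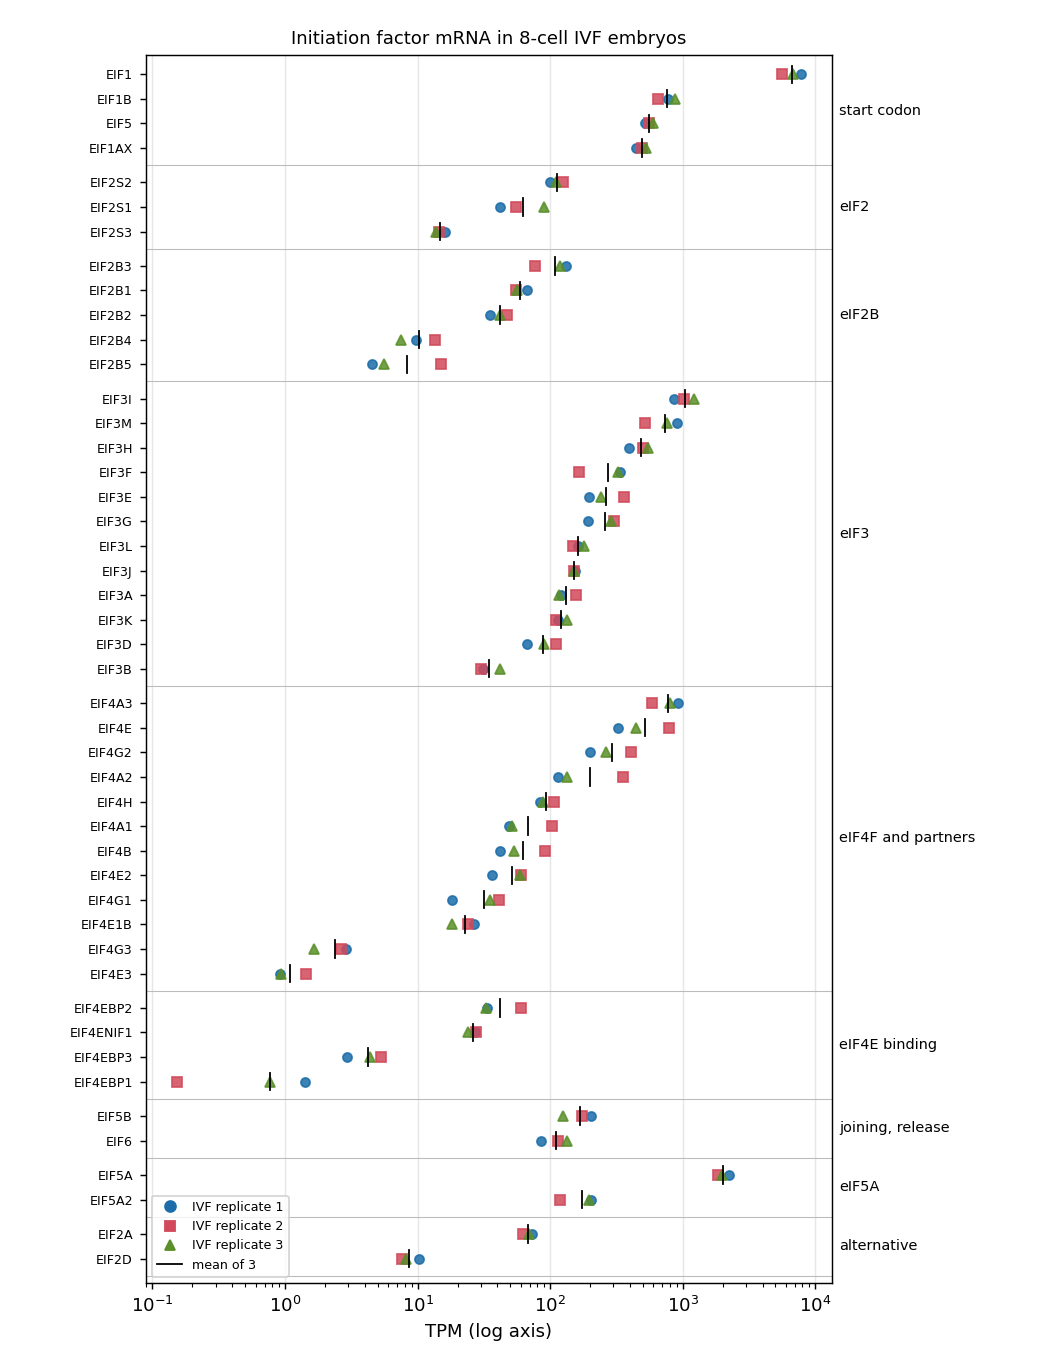
TPM (log axis) of the 46 initiation factor genes in the 3 IVF libraries, one row per gene, grouped by role, with a black bar at the mean of the 3 libraries. EIF1 lies highest at a mean of 6716 TPM and EIF4EBP1 lowest at 0.776 TPM; the red squares of replicate 2 lie to the right in most rows of eIF4F.

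The mRNAs of the factors that read the start codon were all abundant. EIF1, which keeps the scanning ribosome open and guards against wrong start codons, stood at 7772, 5630.2 and 6746 TPM and ranked 9 among rows with a symbol. EIF1B, its close paralog, stood at 774, 652 and 873 TPM. The order held in every library and the values did not overlap, with EIF1 above EIF1B by 3.13 ± 0.19 on the log2(TPM + 1) scale, and EIF1 made up 89.7 ± 1.21% of their summed TPM. The paralogs are alike in sequence, and no source used here says how reads shared between them were counted, so their split is uncertain, as it is for EIF4A1 and EIF4A2 and for EIF5A and EIF5A2.

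EIF1AX, the X-linked gene for eIF1A, which binds beside eIF1 and promotes scanning, stood at 443, 491 and 532 TPM, a mean of 489 ± 44.6 TPM and rank 9 among the 46 members. It was among the steadier members on TPM as deposited, with a highest value 1.20 times its lowest. EIF1AX was lower than EIF1 in every library without overlap, and the difference of EIF1AX minus EIF1 was -3.77 ± 0.32 (log2). EIF5, which makes eIF2 hydrolyse its GTP once the start codon is found, stood at 521, 555 and 597 TPM. EIF5 lay above EIF1AX in 3 of 3 libraries, but their ranges overlapped.

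The subunits of eIF2, the GTP-binding complex that delivers the initiator tRNA, were unequal. EIF2S2, the beta subunit, stood at 100.1, 125 and 111 TPM. EIF2S1, the alpha subunit whose phosphorylation slows translation under stress, stood at 41.5, 55.3 and 89.2 TPM. EIF2S3, the X-linked gamma subunit that holds the GTP, stood at 16.0, 14.5 and 13.7 TPM. The ranges of the 3 subunits did not overlap. EIF2S2 exceeded EIF2S1 by 0.91 ± 0.52 (log2), a difference that was only 0.31 in replicate 3, where EIF2S1 was highest. The difference of EIF2S3 minus EIF2S1 was -1.93 ± 0.65, and EIF2S3 made up 8.00 ± 1.91% of the summed TPM of eIF2. So EIF1AX and EIF2S3, both X-linked, stood far apart in level while each varied little between libraries on TPM as deposited.

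The exchange factor eIF2B, which recharges eIF2 with GTP, was also uneven. EIF2B3, the gamma subunit, stood at 133, 77.3 and 118 TPM and gave 47.3 ± 9.01% of the summed TPM of the 5 subunits. The alpha subunit EIF2B1 stood at 66.3, 55.6 and 55.9 TPM and the beta subunit EIF2B2 at 35.02, 47.5 and 41.9 TPM. EIF2B4, the delta subunit, stood at 9.69, 13.6 and 7.53 TPM. EIF2B5, the catalytic epsilon subunit, was lowest at 4.49, 15.1 and 5.56 TPM and was 1.42 (log2) higher in replicate 2 than in the mean of the others. The order EIF2B3, EIF2B1, EIF2B2 and EIF2B4 held without overlap, and EIF2B4 and EIF2B5 overlapped.

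All 12 measured subunits of eIF3, the large scaffold on the small ribosomal subunit, were above 30 TPM in every library. Their mean levels spanned 30.1-fold. EIF3I was highest at 853, 1027 and 1226 TPM, followed by EIF3M at 905, 522 and 759 TPM and EIF3H at 394, 504 and 546 TPM. EIF3I and EIF3B belong with EIF3G to one module of the complex, yet EIF3G stood at 191, 303 and 288 TPM and EIF3B was lowest at 31.1, 30.0 and 42.0 TPM.

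EIF3A, the largest subunit and the one on which the core is built, stood at 121, 155 and 116 TPM, and EIF3D, which can itself bind the cap of some mRNAs, at 66.5, 109.9 and 89.9 TPM. EIF3J, a loosely bound subunit, hardly varied on TPM as deposited, at 155, 151 and 151 TPM. EIF3F, by contrast, stood at 166 TPM in replicate 2, against 335 and 325 TPM in replicates 1 and 3, and EIF3E at 358 TPM in replicate 2, against 198 and 239.7 TPM in replicates 1 and 3. EIF3K and EIF3L, a pair of peripheral subunits, averaged 120.3 ± 12.8 TPM and 163 ± 14.8 TPM. Of the 11 neighbouring pairs in the order of mean level, 4 did not overlap (EIF3H over EIF3F, EIF3G over EIF3L, EIF3K over EIF3D, and EIF3D over EIF3B) and 7 overlapped.

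At the cap, the mRNA of one cap-binding gene dominated. EIF4E, which binds the mRNA cap, stood at 327, 792 and 441 TPM and made up 86.3 ± 3.53% of the summed TPM of the 4 eIF4E genes. EIF4E1B, a relative known for expression in oocytes, stood at 26.6, 23.96 and 18.0 TPM, and the difference of EIF4E1B minus EIF4E was -4.37 ± 0.72 (log2). EIF4E2, a relative linked to repression of translation, stood at 36.6, 59.8 and 59.4 TPM, and EIF4E3 at 0.919, 1.45 and 0.927 TPM. For EIF4E2 minus EIF4E the difference was -3.23 ± 0.43, and for EIF4E3 minus EIF4E it was -7.87 ± 0.46. All 3 relatives lay below EIF4E in every library without overlap.

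Among the scaffolds, EIF4G2, a relative that lacks the part binding eIF4E, led. It stood at 198, 409 and 265 TPM and gave 89.5 ± 1.53% of the summed TPM of the 3 eIF4G genes. The classical scaffold EIF4G1 stood at 18.3, 40.8 and 35.4 TPM and EIF4G3 at 2.88, 2.62 and 1.66 TPM. EIF4G2 exceeded EIF4G1 by 3.18 ± 0.27 (log2), and EIF4G1 exceeded EIF4G3 by 3.20 ± 0.78. EIF4E had 17.9, 19.4 and 12.5 times the TPM of EIF4G1 in replicates 1, 2 and 3. The difference of replicate 1 minus the mean of the others was -1.02 (log2) for EIF4G1, the only one of 42 members at least 2-fold lower in a library on TPM as deposited.

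The helicases were unequal too. EIF4A1, usually the main helicase of eIF4F, stood at 49.0, 103 and 51.2 TPM and lay below EIF4A2 in every library. EIF4A2, its close paralog, stood at 115, 355 and 133 TPM, and the difference of EIF4A1 minus EIF4A2 was -1.45 ± 0.29 (log2). EIF4A3, which despite its name works in the exon junction complex, was highest at 925, 591 and 808 TPM and exceeded EIF4A1 in every library; the difference of EIF4A1 minus EIF4A3 was -3.56 ± 0.92, and -4.08 without replicate 2. The share of EIF4A3 in the 3 helicase genes was 56.4% in replicate 2, against 84.9% and 81.4% in replicates 1 and 3. The helicase cofactors EIF4B and EIF4H stood at 41.7, 90.7 and 53.4 TPM and at 83.6, 108 and 88.0 TPM.

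Of the genes for proteins that hold eIF4E back, EIF4EBP2 had the most mRNA. These 4E-binding proteins release eIF4E when phosphorylated. EIF4EBP2 stood at 33.1, 60.1 and 32.6 TPM, EIF4EBP3 at 2.95, 5.31 and 4.36 TPM and EIF4EBP1 at 1.40, 0.153 and 0.772 TPM, and the 3 ranges did not overlap. The difference of EIF4EBP1 minus EIF4EBP2 was -4.60 ± 1.0 (log2). The mRNA of EIF4E had 10.8 ± 1.83 times the summed TPM of the 3 binding proteins. EIF4ENIF1, which carries eIF4E and takes part in storing mRNA in oocytes, stood at 27.0, 27.5 and 24.004 TPM. Its spread was small on TPM as deposited.

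Late and accessory factors completed the set. EIF5B, which joins the ribosomal subunits, stood at 203, 175 and 126 TPM, below EIF5 in every library, with EIF5 higher by 1.75 ± 0.45 (log2). EIF6, which keeps the large subunit from joining early, stood at 84.8, 114 and 134 TPM and overlapped with EIF5B. EIF5A, the hypusine-bearing factor now placed mainly in elongation, stood at 2234, 1852 and 1972 TPM, and its paralog EIF5A2 at 203, 119 and 196 TPM. EIF5A exceeded EIF5A2 by 3.57 ± 0.33 and gave 92.2 ± 1.57% of their sum. EIF2A and EIF2D, linked to tRNA delivery without eIF2, stood at 72.7, 61.9 and 68.7 TPM and at 10.2, 7.60 and 8.17 TPM.

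**Figure D2:**
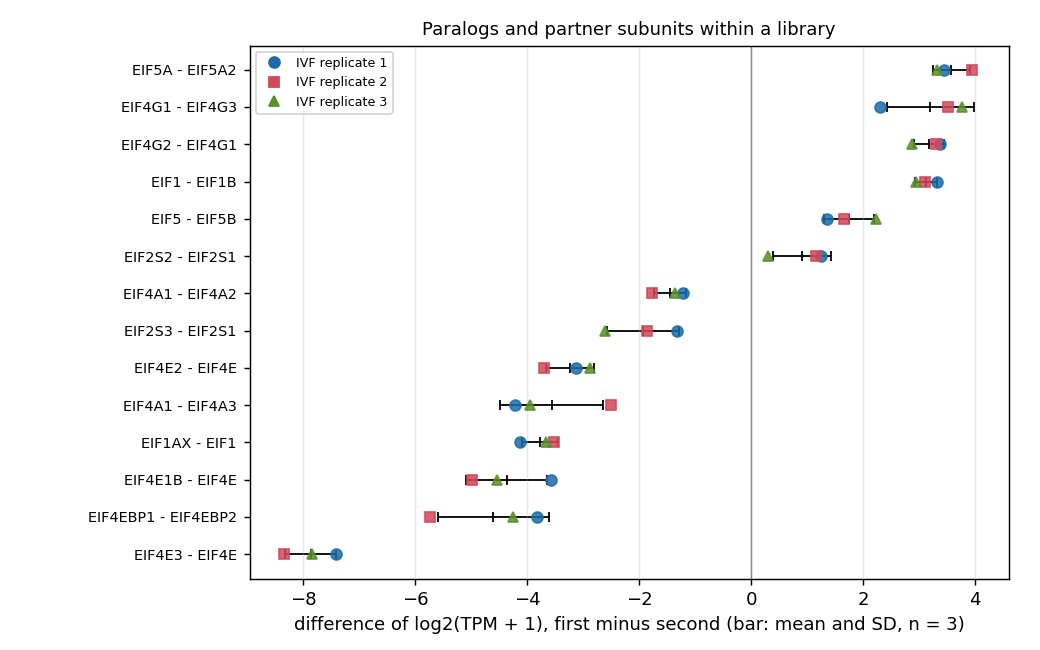
Difference of log2(TPM + 1), first gene minus second, for 14 pairs of paralogs or partner subunits in each of the 3 IVF libraries, with mean and SD as a black bar. All 14 pairs keep their sign in the 3 libraries; EIF2S2 minus EIF2S1 comes nearest to 0, at 0.31 in replicate 3.

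In all, the 14 pairs kept their sign in 3 of 3 libraries and none overlapped. Over the whole family only 6 of the 45 neighbouring pairs in the order of mean level did not overlap, so single ranks carry little. Neighbours in that order are close in level by construction, whereas the 14 pairs were picked by hand, so the counts cannot be compared. The median SD of log2(TPM + 1) between libraries was 0.30 for the 42 members averaging 5 TPM or more, 0.40 for all 6978 rows at that level, and 0.35 for the 1387 rows between the quartiles of the members' mean level. In 21 of 46 members the SD was at most 20% of the mean, and in 3 (EIF4A2, EIF2B5 and EIF4EBP1) it was over 50%. In each of those 3, replicate 2 was the library farthest from the mean of the others on the log2 scale.

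Of the 42 members at 5 TPM or more, 4 were at least 2-fold higher in replicate 2 than in the mean of the other libraries (12.8% of all rows were) and none was 2-fold lower (3.85%). None was 2-fold higher in replicate 1 (5.65%) and 1 was 2-fold lower (7.71%). None was 2-fold higher (0.817%) or lower (2.62%) in replicate 3 on TPM as deposited. These counts are near or under the shares of all rows.

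The 4 members higher in replicate 2 were EIF4A2, EIF2B5, EIF4E and EIF4A1. EIF4A2 stood at 355 TPM in replicate 2, against 115 and 133 TPM in replicates 1 and 3, a difference of 1.51 (log2). EIF2B5 stood at 15.1 TPM in replicate 2, against 4.49 and 5.56 TPM in replicates 1 and 3, a difference of 1.42. EIF4E stood at 792 TPM in replicate 2, against 327 and 441 TPM in replicates 1 and 3, a difference of 1.06. EIF4A1 stood at 103 TPM in replicate 2, against 49.0 and 51.2 TPM in replicates 1 and 3, a difference of 1.03. For each of them the value of replicate 2 lay above both other libraries.

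By role, the group of eIF4F and its partners, which holds cap-binding, scaffold and helicase genes, lay highest in replicate 2. Among the group's 10 rows averaging 5 TPM or more, 9 lay above the mean of the other libraries, the exception being EIF4A3. The median difference of these rows was 0.75 (log2). Its cap-binding genes EIF4E, EIF4E2 and EIF4E1B lay at 1.06, 0.35 and 0.12. Of all 42 members 24 lay above 0, with a median of 0.10, and of all rows 60.3% did, with a median of 0.19. The 12 eIF3 rows had a median of -0.01, with 6 above 0. EIF4B, EIF4EBP2 and EIF4G2 differed by 0.93, 0.85 and 0.83. Lower in replicate 2 were EIF3F at -0.99, EIF5A2 at -0.74, EIF2B3 at -0.69, EIF3M at -0.67 and EIF4A3 at -0.55. EIF1AX lay at 0.02, close to no difference. Over all 12 eIF4F rows the median difference was -0.62 in replicate 1, with 3 above 0. Of all 42 members 16 lay above 0 in replicate 1, with a median of -0.17, and of all rows 46.0% did, with a median of -0.07. For the 12 eIF4F rows the median was 0.50 in replicate 2, with 11 above 0, and -0.19 in replicate 3, with 3 above 0. In replicate 3, 9 of the 12 eIF3 rows (median 0.23) and all 4 start codon rows (median 0.17) lay above 0. Of all 42 members 22 did so there, with a median of 0.03, and of all rows 38.4% did.

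The differences of replicate 2 depended in part on the scaling. With libraries scaled by the median of ratios, the median of all rows in replicate 2 moved by -0.34 (log2) and 2 members, EIF4A2 and EIF2B5, were 2-fold higher (4.78% of all rows), while 4, EIF3F, EIF5A2, EIF2B3 and EIF3M, were 2-fold lower (10.1%), in both directions close to the share of all rows. EIF4A2 then lay at 1.16, EIF2B5 at 1.10, EIF4E at 0.71 and EIF4A1 at 0.68. EIF4B, EIF4EBP2 and EIF4G2 lay at 0.58, 0.51 and 0.48. On the lower side EIF3F lay at -1.34, EIF5A2 at -1.09, EIF2B3 at -1.04, EIF3M at -1.02 and EIF4A3 at -0.90. Of the 10 eIF4F rows at 5 TPM or more, 7 then lay above 0, with a median of 0.40. Of all 42 members 14 then lay above 0, and of all rows 41.8% did, with a median of -0.14. Among the 10 eIF4F rows, EIF4E1B and EIF4H were the ones that crossed to below 0. EIF1AX, EIF2S3 and EIF3J, steady on TPM as deposited, then lay at -0.33, -0.35 and -0.37. No row of the start codon, eIF2, joining, eIF5A or alternative groups then lay above 0. The mitochondrial share and the levels of ARGFX and ZSCAN4 given above were highest in the same library, and their part in these differences was not tested.

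**Figure D3:**
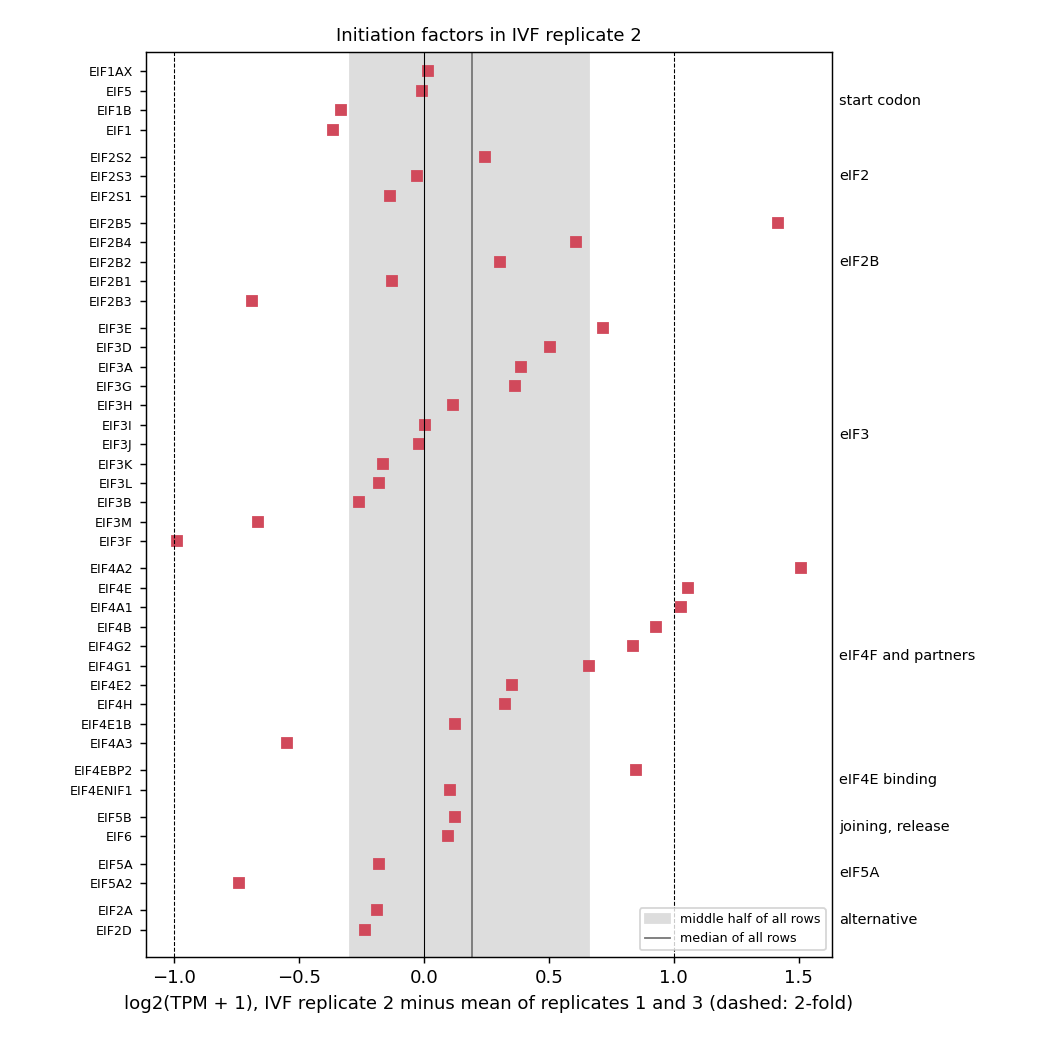
Log2(TPM + 1) in IVF replicate 2 minus the mean of IVF replicates 1 and 3 for the 42 members averaging 5 TPM or more, grouped by role, with the range between the quartiles of all 6978 rows as a grey band and the 2-fold lines dashed. EIF4A2, EIF2B5, EIF4E and EIF4A1 lie past the upper line and EIF3F just inside the lower one at -0.99.

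Several members hold small nucleolar RNAs (snoRNAs), which are cut from introns and guide the modification of ribosomal RNA. In the gene table used for names, 8 of the 46 genes hold a total of 15 snoRNA rows, led by EIF4A1 and EIF4A2 with 4 each. The summed TPM of the snoRNA rows in EIF4A1 was 87.6 in replicate 2, against 24.5 and 43.7 in replicates 1 and 3. In EIF4A2 it was 45.9 in replicate 2, against 17.0 and 17.5. In EIF5, whose own highest level was 1.15 times its lowest, it was 39.3 in replicate 2, against 2.84 and 13.2. Of the 14 such rows above 0 in any library, 13 were highest in replicate 2, as were 226 of 297 snoRNA rows over the whole table. Libraries were made from polyA RNA, and whether reads of these rows came from snoRNAs or from the host transcripts around them was not tested. The part of the snoRNA rows in the levels of the host genes was not tested either. In all, 15 members overlap another gene in that table, 7 of them (EIF2B1, EIF2B3, EIF2S3, EIF3J, EIF3M, EIF4A1 and EIF4A2) a protein-coding one, so their counts may be shared and are uncertain. Without those 15, the members 2-fold higher in replicate 2 numbered 2, EIF4E and EIF2B5.

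Genes that work with the initiation factors were described from a list of 46 genes, of which 42 stood at 1 TPM or more in all libraries. Their median was 26.9, 28.6 and 16.7 TPM. The 7 genes listed under elongation, EEF2K and EEF1E1 included, had a median of 159 ± 24.1 TPM. In every library that median was the value of EEF1E1. EEF1A1, which brings tRNA to the ribosome, was at 369 ± 75.9 TPM and EEF2, which moves it along the mRNA, at 184 ± 40.9 TPM. EEF2K, the kinase that inhibits EEF2, was at 1.33 ± 0.765 TPM. Termination factor ETF1 was at 139.8 ± 55.5 TPM.

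Among the genes for poly(A) binding, PAIP1, a partner of the poly(A)-binding protein and of eIF3, led at 1354 ± 322 TPM. PABPC1, the general cytoplasmic form, stood at 131, 274 and 143 TPM. PABPC1L, a form known from oocytes, stood at 6.91, 1.62 and 4.18 TPM, and PABPN1L, a relative also known from oocytes, at 148, 58.1 and 70.9 TPM. DENR and MCTS1, which act as a pair in reinitiation, stood at 327, 323 and 370.2 TPM and at 11.7, 32.7 and 15.0 TPM, so DENR lay far above its partner in every library.

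The kinases that phosphorylate EIF2S1 all lay below most initiation factors. EIF2AK1, the haem-regulated kinase, was highest of the 4 at 18.6, 16.6 and 12.2 TPM. EIF2AK4, which senses lack of amino acids, stood at 5.16, 3.36 and 2.36 TPM, EIF2AK3, of the endoplasmic reticulum, at 0.683, 3.22 and 0.966 TPM, and EIF2AK2, which binds double-stranded RNA, at 0.696, 0.0833 and 0.141 TPM. Of the phosphatase that reverses them, PPP1CC, a catalytic subunit, stood at 517, 322 and 383 TPM. The targeting subunits PPP1R15A and PPP1R15B stood at 1.62, 4.49 and 3.60 TPM and at 10.8, 32.2 and 16.8 TPM. ATF4, translated when eIF2 is phosphorylated, stood at 49.9, 86.7 and 82.8 TPM.

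Genes that signal to eIF4 lay under the level of the initiation factors but above that of symbol rows in general, with a median of 5.37 ± 0.695 TPM over 9 genes, all 9 at 1 TPM or more in every library. MTOR, the kinase that phosphorylates the 4E-binding proteins, was at 4.001 ± 1.75 TPM and its partner RPTOR at 4.26 ± 0.580 TPM. PDCD4, which blocks eIF4A, was highest of them at 47.4 ± 10.04 TPM, followed by RPS6KB1, a kinase downstream of MTOR, at 36.6 ± 4.19 TPM and LARP1, which binds mRNAs under its control, at 23.0 ± 2.71 TPM. The enzymes DHPS and DOHH, which make the hypusine of EIF5A, were at 30.1 ± 4.49 TPM and 33.9 ± 9.15 TPM.

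Of 7 genes that store or repress mRNA in oocytes and embryos, 5 were highest in replicate 1, and CPEB4 and DDX6 in replicate 2. CPEB1, which governs the poly(A) tail of stored mRNAs, stood at 363 TPM in replicate 1, against 104 and 152 TPM in replicates 2 and 3. YBX2, a protein that coats stored mRNA, stood at 44.6 TPM in replicate 1, against 25.002 and 22.8 TPM in replicates 2 and 3. LSM14B and LSM14A are P-body proteins that repress translation. LSM14B stood at 11.8 TPM in replicate 1, against 3.75 and 2.97 TPM in replicates 2 and 3, and LSM14A at 42.5 TPM in replicate 1, against 20.4 and 16.7 TPM in replicates 2 and 3. CPEB4, a relative of CPEB1, stood at 16.4 TPM in replicate 2, against 9.75 and 8.57 TPM in replicates 1 and 3, and DDX6, a helicase of stored mRNA, at 12.9 TPM in replicate 2, against 8.55 and 6.45 TPM in replicates 1 and 3. PATL2 differed little, at 4.31 TPM in replicate 1, against 3.07 and 3.44 TPM in replicates 2 and 3. Among all rows at 5 TPM or more, 34.7% were highest in replicate 1, as were 16 of the 46 initiation factors. Of the 46 related genes 21 were highest there, 5 of the 8 poly(A) binding genes among them. Of the initiation factors linked to the same storage, EIF4E1B stood at 26.6 TPM in replicate 1, against 23.96 and 18.0 TPM in replicates 2 and 3, and EIF4ENIF1 at 27.0 TPM in replicate 1, against 27.5 and 24.004 TPM in replicates 2 and 3. Replicate 1 was the highest library for EIF4E1B, by a smaller ratio than for CPEB1, and not for EIF4ENIF1.

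**Figure D4:**
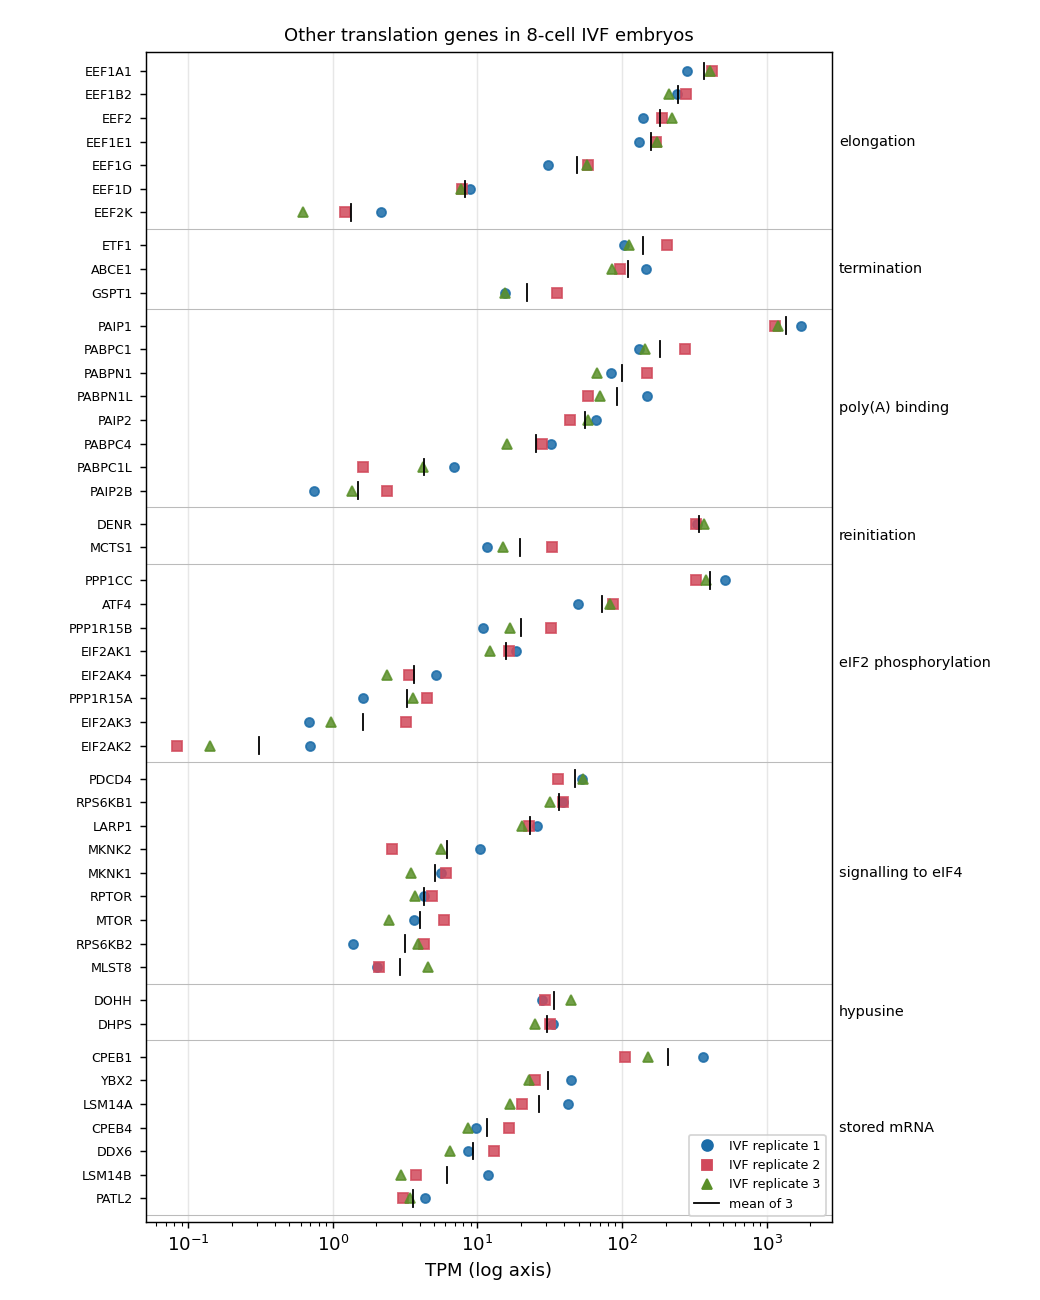
TPM (log axis) of 46 other genes of translation and its control in the 3 IVF libraries, one row per gene, grouped by role, with a black bar at the mean. PAIP1 lies highest at a mean of 1354 TPM and EIF2AK2 lowest at 0.307 TPM. CPEB1, YBX2, LSM14A and LSM14B are among the 21 genes that lie farthest right in replicate 1.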

How the data were processed

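PolyA RNA of 8-cell sheep embryos was measured. The deposited table holds TPM that the authors made from reads. The submitters' processing notes list fastp (0.23.4) and HISAT2 (2.2.1), with no role or order, and name mouse and pig builds. A sheep build, an annotation, a counting tool and a treatment of reads shared by similar genes are each not given in the sources used. Each column used sums to 1000000.

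Columns were assigned by name. The names of 3 columns match IVF samples; the other 4 value columns bear no sample's name and were left out, although some of their values were seen on inspection. Members and gene lists were chosen with earlier results of these data known. All members are accounted for by role. Values in every library are given for EIF1AX, for the 14 pairs, for the highest 3 and lowest 2 members of each role and for members past 2-fold. EIF3K and EIF3L are given as means. Those related genes that are named were picked from a list of 46 after their values were seen.

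Logs were taken as log2(TPM + 1), a scale on which changes of low genes are understated. Detection was set at 1 TPM. The 2-fold counts and the spread used rows averaging 5 TPM or more. A difference for 1 library is its log2 value minus the mean of the others. All 46 members matched the ARS-UI_Ramb_v3.0 gene table by symbol; its build may differ, so only neighbours were read from it. Steps were tested on simulated data. Values were computed with pandas 2.3.3 and numpy 2.4.6 and drawn with matplotlib 3.10.9 under Python 3.11.15.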

Additional observations from a re-analysis of the deposited data

How the results depend on the processing

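No paired analysis was possible because IVF is the sole group with columns. Removal of mitochondrially encoded and ribosomal protein rows gave the members a median of 125.3 TPM, against 105.5 TPM over all rows, and a share of 2.07%, against 1.74%, since the remaining rows then share the total. Without EIF1 the share was 1.07%. When each library was left out, the median ranged from 101.4 to 112.0 TPM and the share from 1.71 to 1.80%. The members past 2-fold in any library, 5, numbered 3 with a pseudocount of 5 and 2 without members that overlap another gene, fewer members being counted there. The median SD of log2 values, 0.30, became 0.27 with a pseudocount of 5. A pseudocount added to both genes cannot change the sign of a pair. As each of the 14 pairs had the same sign in every library, leaving a library out could not change it either. With a pseudocount of 0.1, 2 of the 14 pairs moved by more than their SD, and with 5, 3 did. EIF4E3 minus EIF4E, -7.87, was then -8.69 and -6.33. EIF4EBP1 minus EIF4EBP2, -4.60, was -5.86 and -2.98. EIF4G1 minus EIF4G3, 3.20, was 2.25 with 5. With the median of ratios 7 members were past 2-fold in a library: 2 higher and 4 lower in replicate 2, and 1 higher in replicate 3. EIF4G1 in replicate 1 was no longer among them. For these alternatives, shares of all rows are given only for replicate 2 under the median of ratios. The counts are therefore not read as results about the members. Of the 46 members, 46 passed 0.1 TPM and 41 passed 5 TPM in all libraries. The alternatives on overlapping genes, on EIF1 and, for 2-fold counts, on mitochondrial rows were chosen after seeing the data. TPM carries no depth, and a low value may be a gene missed in sampling.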
